A study of Mus musculus with 18 samples.

Results

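The 10 genes described here encode the Ran GTPase cycle and the carriers that move cargo through the nuclear pore: *Ran*, *Rcc1*, *Rangap1*, *Ranbp1*, the exportins *Xpo1* and *Xpo5*, and the importins *Kpna2*, *Kpnb1*, *Ipo4* and *Ipo5*. They are 10 of the 45706 genes counted in 18 mouse kidneys. They were chosen by their role in the pathway and with the measured values of KO and control kidneys already known, so their KO effects are given as a description with no test. All 10 passed the filter on low counts in each comparison.

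Whole kidneys of male C57BL/6 mice aged 10 to 12 weeks were removed after bilateral ischemia of 22.5 min and 12 h of reperfusion. The *Myc* cohort held 5 *Myc* KO and 5 *Myc* control kidneys, and the *Cxcl12* cohort 5 *Cxcl12* KO and 3 *Cxcl12* control kidneys. KO mice carried the floxed gene (*Myc* F/F or *Cxcl12* F/F) with the Pax8rtTA and TetOCre transgenes, and the controls of each cohort carried the same floxed gene and Pax8rtTA without TetOCre. All mice, controls included, had received doxycycline. The Pax8 promoter drives the recombinase in tubule cells, while whole-kidney RNA also comes from vessels, glomeruli, interstitium and blood cells, which keep the gene. All 18 kidneys were injured, so no value here is a level in uninjured kidney.

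Ran is a small GTPase that works as a compass between nucleus and cytoplasm. Rcc1, bound to chromatin, loads Ran with GTP in the nucleus, and Rangap1, helped by Ranbp1, makes Ran hydrolyse it in the cytoplasm. Importins release their cargo when they meet Ran-GTP inside the nucleus, exportins bind their cargo together with Ran-GTP and let it go outside, and every cell that makes ribosomes depends on this traffic for ribosomal proteins and subunits.

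All 10 genes had a RefSeq promoter window, 11 windows in all. These windows, from 250 bases before to 50 bases after an annotated start, were searched for the letters CACGTG, the canonical E-box bound by Myc with its partner Max, which reads the same on both strands. They were also searched for CACGCG, read on either strand and so also as CGCGTG. The E-box lay in the windows of *Ran* and *Ipo4*, and in 7.15% of all 32851 windows. The second motif lay in the windows of *Ran*, *Ranbp1* and *Kpnb1*, and in 9.27% of all windows. No occurrence of one motif overlapped the other in these windows. Over genes tested in the *Myc* cohort, 11.4% had CACGTG and 19.0% had CACGCG in a window. The stretches of the 3 genes with the largest KO effects past the threshold used below are shown from GRCm38.p6, on the strand of the gene, with 1 motif of each gene in capitals.
Ran, chr5:129020013-129020068, plus strand, E-box 118 bases before the RefSeq start: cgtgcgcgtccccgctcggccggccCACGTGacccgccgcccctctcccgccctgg
Ranbp1, chr16:18248851-18248906, minus strand, CACGCG as CGCGTG 187 bases before the RefSeq start: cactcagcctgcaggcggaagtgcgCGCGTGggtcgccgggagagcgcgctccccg
Ipo4, chr14:55635655-55635680, minus strand, E-box 15 bases into the transcript: tcggagtctcCACGTGccgatcctcc
The *Ran* and *Ranbp1* motifs shown lay upstream of any annotated exon of the gene, and those of *Ipo4* in its 5′ UTR. A match is a description of the letters and not a bound site. The windows of *Rcc1*, *Rangap1* and *Ipo4* stand at RefSeq starts 7855, 15611 and 273 bases inside the outermost start of GENCODE. The promoters at that outer start were not searched, and the position of the *Ipo4* E-box is counted from the RefSeq start.

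The depth on genes ran from 12918220 to 29749500 reads, and levels are given as normalised counts scaled to this depth after TMM (CPM). As a check of the labels, *Myc* had 94.8 ± 14.5 CPM (SD, n = 5) in *Myc* control and 31.0 ± 3.94 CPM (n = 5) in *Myc* KO kidneys, and *Cxcl12* had 53.4 ± 7.92 CPM (n = 3) in *Cxcl12* control and 32.2 ± 6.07 CPM (n = 5) in *Cxcl12* KO kidneys. In neither case did the groups overlap. The share of unmapped reads was below 5% in 6 kidneys, named the high-mapping kidneys from here on: *Myc* control 1 and 3, *Myc* KO 3 and 5, and *Cxcl12* KO 1 and 2. The same 6 kidneys were also the deepest, with 22437067 or more reads on genes, against 18006784 or fewer in the other 12. Mapping and depth therefore cannot be told apart in this split. The study's methods state that the authors adjusted normalised values for batch effects with ComBat, but the sources used here do not say which kidneys formed a batch, and the deposited counts are raw. No *Cxcl12* control kidney was in this group, so within it the *Cxcl12* genotypes cannot be compared.

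In *Myc* KO kidneys all 10 genes had a lower fitted level than in *Myc* control kidneys, by 0.12 to 0.48 on the log2 scale. The median log2 fold change of the 10 genes was -0.21, against -0.00083 over all 14936 genes tested. With edgeR's quasi-likelihood test, *Ran*, *Ranbp1* and *Ipo4* passed an adjusted p of 0.05 over all genes, 3 of 10. Without *Myc* KO 2 the count was 0 and without *Myc* KO 3 it was 1, *Ranbp1*, and *Ran* also missed the threshold without *Myc* KO 4 or 5 or without *Myc* control 2, 4 or 5. Of all genes tested 1.29% passed it as lower and 0.355% as higher in KO. No KO kidney reached the lowest control kidney for *Ran*, *Ranbp1*, *Kpnb1*, *Ipo4* and *Ipo5*, 5 of 10 genes, a pattern held by 3.92% of all genes tested. Because values of this contrast were known when the genes were chosen, nothing is read from these counts.

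**Figure D1:**
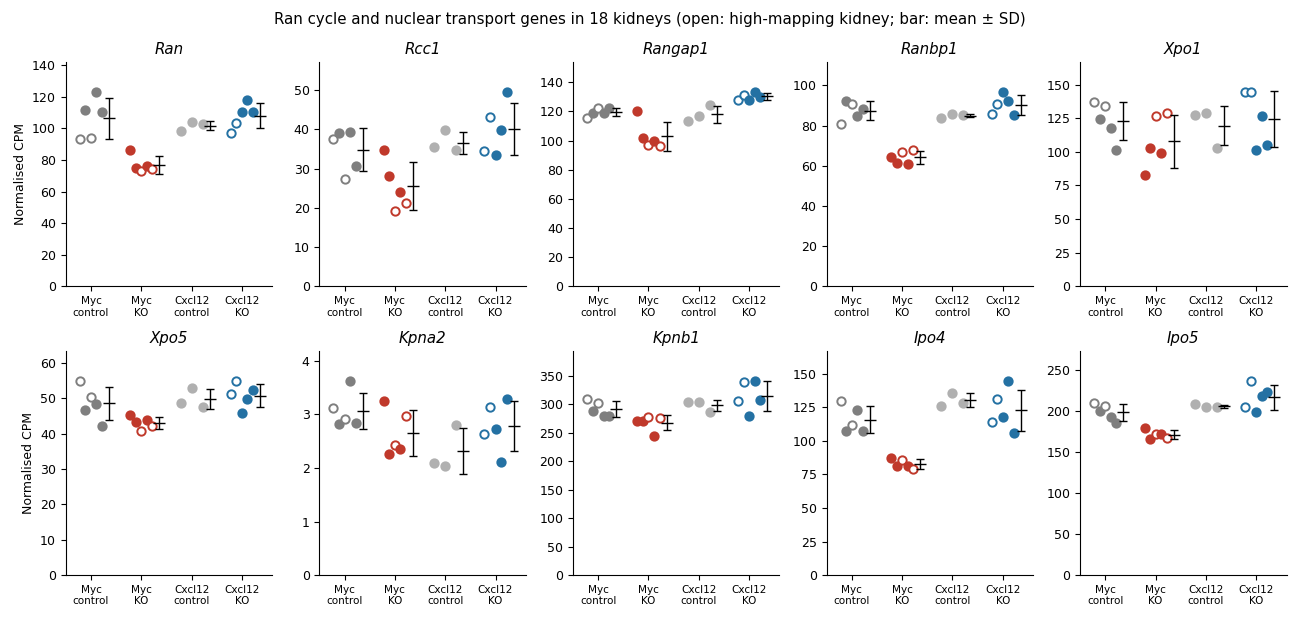
Normalised CPM of each gene (vertical axis, from 0) in every kidney of the 4 groups, with open circles for the 6 high-mapping kidneys and the mean ± SD beside each group. For *Ran*, *Ranbp1*, *Kpnb1*, *Ipo4* and *Ipo5* the 5 *Myc* KO kidneys lay below the 5 *Myc* control kidneys, while in the *Cxcl12* cohort *Rangap1* was the gene whose groups did not overlap.

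*Ran* (ENSMUSG00000029430, chromosome 5, 129020069 to 129024323, GRCm38) is the GTPase itself. In *Myc* control kidneys 1 to 5 its level was 93.1, 111, 94.0, 123 and 110.4 CPM. In *Myc* KO kidneys 1 to 5 it was 86.4, 74.6, 72.8, 76.2 and 74.2 CPM. The groups did not overlap, and KO 1 stood above the other KO kidneys. The log2 fold change was -0.47 (standard error 0.091), a level 27.7% lower. The *Cxcl12* controls had 98.4, 104 and 103 CPM and the KO kidneys 97.1, 104, 111, 118 and 111 CPM. Here the groups overlapped, with 0.08 as the log2 fold change (standard error 0.082).

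*Ranbp1* (ENSMUSG00000005732, chromosome 16, 18239784 to 18248732), which binds Ran-GTP and speeds its hydrolysis by Rangap1, had groups that did not overlap. *Myc* control kidneys 1 to 5 had 80.6, 92.3, 90.7, 84.8 and 88.3 CPM. *Myc* KO kidneys 1 to 5 had 64.3, 61.3, 66.6, 60.6 and 68.0 CPM. The spread within each group was smaller than the step between them, and the log2 fold change was -0.44 (standard error 0.067), a level 26.4% lower. For comparison, the *Cxcl12* controls had 83.9, 85.5 and 85.2 CPM and the KO kidneys 85.7, 90.8, 96.9, 92.0 and 85.4 CPM. The lowest KO kidney lay just under the highest control, with 0.08 as the log2 fold change (standard error 0.074).

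*Rcc1* (ENSMUSG00000028896, chromosome 4, 132331919 to 132353605), the exchange factor that charges Ran with GTP, had a large effect with a wide spread. *Myc* control kidneys had 37.6, 39.1, 27.4, 39.3 and 30.6 CPM. *Myc* KO kidneys had 34.7, 28.0, 19.2, 24.1 and 21.2 CPM. The groups overlapped, since KO 1 and KO 2 stood above control 3 and KO 1 also above control 5. The log2 fold change was -0.45 (standard error 0.158), not past the threshold. Across the *Cxcl12* kidneys *Rcc1* ranged from 34.6 to 39.7 CPM in controls and from 33.5 to 49.6 CPM in KO kidneys, with 0.13 as the log2 fold change (standard error 0.128).

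*Rangap1* (ENSMUSG00000022391, chromosome 15, 81704248 to 81745530), the GTPase-activating protein, was the gene in which 1 kidney decided the overlap. *Myc* control kidneys had 115, 119, 122, 119 and 122 CPM. *Myc* KO kidneys had 121, 102, 96.8, 99.5 and 96.6 CPM. All KO kidneys but KO 1 lay below every control, and the log2 fold change was -0.21 (standard error 0.074). Without KO 1 it was -0.27. In the *Cxcl12* cohort the direction was the other one: the controls had 113, 117 and 124 CPM and the KO kidneys 128, 131, 128, 134 and 130.2 CPM. All 5 KO kidneys stood above all 3 controls, with 0.14 as the log2 fold change (standard error 0.073).

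*Xpo1* (ENSMUSG00000020290, chromosome 11, 23256041 to 23298249), the exportin also called CRM1 that carries proteins with leucine-rich export signals and ribosomal subunits, had overlapping groups. *Myc* control kidneys had 137, 125, 134, 118 and 101 CPM. *Myc* KO kidneys had 82.7, 103, 127, 98.8 and 129 CPM. The log2 fold change was -0.18 (standard error 0.126). The 2 highest kidneys of each of these groups were the high-mapping ones, and the same was so in *Cxcl12* KO, where kidneys 1 and 2 had 145 and 144 CPM and the others 101, 127 and 105 CPM. *Ran* showed the reverse, with the high-mapping kidneys lowest in all 3 groups. *Xpo1* was the 1 gene of the 10 whose high-mapping kidneys lay above the others in each of the 3 groups, and *Ran* the 1 gene whose high-mapping kidneys lay below. Of all 14936 genes tested in the *Myc* cohort, 2.54% lay above and 5.32% below in this way.

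*Xpo5* (ENSMUSG00000067150, chromosome 17, 46202782 to 46243598), which exports precursor microRNAs, ranged from 42.3 to 55.1 CPM in *Myc* control and from 40.7 to 45.2 CPM in *Myc* KO kidneys. The KO range lay within the lower part of the control range or below it, with -0.17 as the log2 fold change (standard error 0.076). The *Cxcl12* cohort ranged from 47.6 to 53.0 CPM in controls and from 45.9 to 54.8 CPM in KO kidneys, with 0.03 as the log2 fold change (standard error 0.083).

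*Ipo4* (ENSMUSG00000002319, chromosome 14, 55625400 to 55635957), an importin known for carrying histones, had the lowest log2 fold change of the 10 genes in *Myc* KO. *Myc* control kidneys had 130.0, 107, 112, 123 and 107 CPM. *Myc* KO kidneys had 87.4, 81.0, 85.6, 81.5 and 78.8 CPM. The groups did not overlap, and the KO kidneys varied less than the controls, with an SD of 3.54 against 10.2 CPM. The log2 fold change was -0.48 (standard error 0.073), a level 28.3% lower. In the *Cxcl12* cohort the controls had 126, 136 and 128 CPM and the KO kidneys 114, 131, 118, 145 and 106 CPM. The groups overlapped and *Ipo4* was the 1 gene of the 10 with a negative log2 fold change there, -0.09 (standard error 0.105).

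*Kpnb1* (ENSMUSG00000001440, chromosome 11, 97159714 to 97187881), the importin β that carries cargo alone or through an importin α adaptor, was lower by a small step in every KO kidney. *Myc* control kidneys had 310.0, 288, 302, 279 and 280.1 CPM and *Myc* KO kidneys 271, 270.0, 277, 245 and 275 CPM. The groups did not overlap, but the highest KO kidney came close to the lowest control, and the log2 fold change of -0.12 (standard error 0.069) was the smallest of the 10. *Ipo5* (ENSMUSG00000030662, chromosome 14, 120911224 to 120947999), an importin of ribosomal proteins, had 210.0, 199, 206, 192 and 185 CPM in *Myc* control and 179, 165, 172, 172 and 167 CPM in *Myc* KO kidneys. Its groups did not overlap either, with -0.21 as the log2 fold change (standard error 0.065). In the *Cxcl12* cohort the log2 fold changes of *Kpnb1* and *Ipo5* were 0.07 (standard error 0.093) and 0.07 (standard error 0.085), and the groups of both genes overlapped.

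*Kpna2* (ENSMUSG00000018362, chromosome 11, 106988629 to 106999541), an importin α adaptor that is abundant in dividing cells, was by far the lowest of the 10 genes, with 35 to 86 reads per kidney. It ranged from 2.81 to 3.63 CPM in *Myc* control and from 2.25 to 3.24 CPM in *Myc* KO kidneys, with -0.21 as the log2 fold change (standard error 0.160). The *Cxcl12* cohort ranged from 2.04 to 2.81 CPM in controls and from 2.11 to 3.28 CPM in KO kidneys, with 0.26 as the log2 fold change (standard error 0.222). Without *Cxcl12* control 3 that value was 0.42 (standard error 0.257). Its level is uncertain: 13 other annotated genes carry a copy of its transcript at 90% identity or more over at least 200 bases, among them *Gm10184* at 99.9%, with 14 reads, and *Med20*, annotated with a transcript that is 92.6% identical over 1891 bases, with 7726 reads against 958 for *Kpna2*, and reads that map to several places are not counted.

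**Figure D2:**
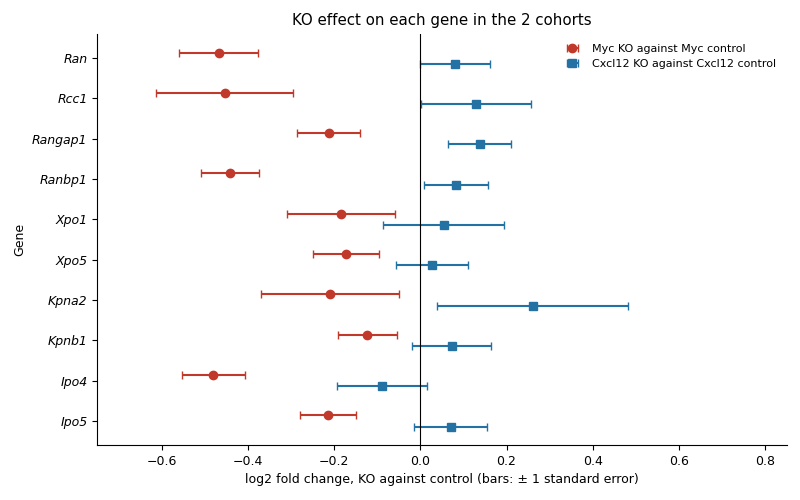
Log2 fold change of KO against control kidneys (horizontal axis, bars ± 1 standard error) of the 10 genes in the *Myc* cohort (circles) and the *Cxcl12* cohort (squares). In *Myc* KO all 10 values lie below 0, from -0.48 to -0.12, and in *Cxcl12* KO 9 of 10 lie above 0, from -0.09 to 0.26.

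In *Cxcl12* KO kidneys 9 of the 10 genes had a higher and 1 a lower fitted level, with a median log2 fold change of 0.076 against 0.00083 over all 15154 genes tested. With edgeR's quasi-likelihood test 0 of the 10 passed an adjusted p of 0.05, and 0% of all genes tested did. The count of the 10 genes at an unadjusted p under 0.05 was 0 with edgeR, where 13% of all genes had one. With DESeq2 0 of the 10 passed the adjusted threshold, against 2.34% of all genes, and with limma voom 0 of the 10 and 0 of all genes. *Rangap1* was the 1 gene with all KO above all control kidneys, a pattern held by 4.96% of all genes tested, and 0 of the 10 had all KO below all control kidneys, a pattern held by 4.72%. Without the high-mapping kidneys the log2 fold change of *Xpo1* turned from 0.05 to -0.12, and that of *Xpo5* from 0.03 to -0.03.

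The difference between the KO effects, *Myc* minus *Cxcl12*, was fitted over all 18 kidneys. It was negative for all 10 genes, from -0.59 for *Rcc1* to -0.20 for *Kpnb1*, with a median of -0.38 against -0.0065 over all 15903 genes tested. *Ranbp1* passed the threshold of the all-gene fit, at -0.53 (standard error 0.090), 1 of 10 genes against 0.0692% of all genes tested. It missed the threshold without any 1 of the 3 *Cxcl12* controls, of *Cxcl12* KO 2, 3 or 4, of *Myc* KO 2, 3 or 4, or of *Myc* control 2 or 5. The no-filter and replicate-block fits lost it as well. DESeq2 called 4 of the 10 (*Ran*, *Rangap1*, *Ranbp1* and *Ipo5*) and 1.97% of all genes, and limma voom 0 of the 10 and 0.0189% of all genes. The *Myc* effect that was known when the genes were chosen is part of this difference, so these values too are a description.

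*Ran* and *Xpo1* moved with the mapping group in opposite directions, and the *Myc* KO effects were therefore also fitted within each mapping group. Outside the high-mapping group, with 3 against 3 kidneys, the log2 fold changes were -0.53 for *Ran*, -0.50 for *Ranbp1* and -0.42 for *Ipo4*. Inside it, with 2 against 2 kidneys, they were -0.34, -0.34 and -0.55 in the same order. All 10 genes had a negative value in each mapping group. *Rcc1* moved the most between them, from -0.32 (standard error 0.153) outside to -0.67 (standard error 0.182) inside, followed by *Xpo5*, from -0.04 (standard error 0.086) to -0.34 (standard error 0.100). The mapping groups also differ in depth, and the difference between them was not tested. *Xpo1* had -0.27 outside and -0.08 inside.

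**Figure D3:**
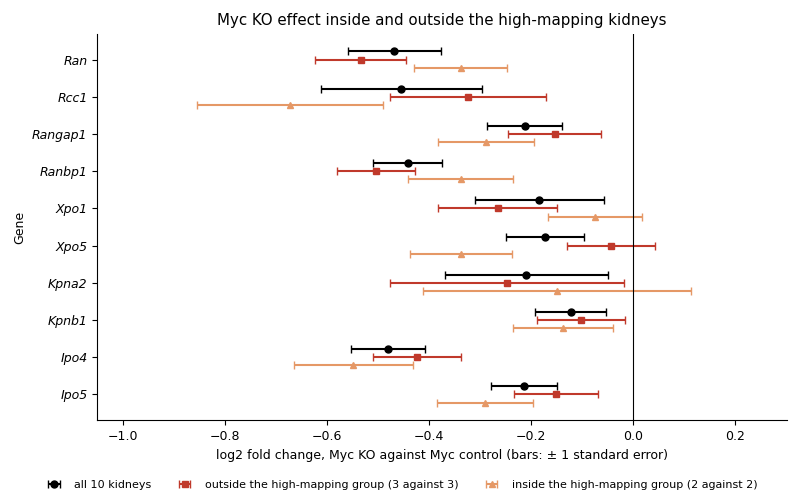
Log2 fold change of *Myc* KO against *Myc* control kidneys (horizontal axis, bars ± 1 standard error) for the 10 genes over all 10 kidneys (circles), outside the high-mapping group (squares) and inside it (triangles). All values lie below 0. *Rcc1* and *Xpo5* moved the most between the mapping groups and are farther below 0 inside the high-mapping group, as are *Ipo4*, *Ipo5*, *Rangap1* and *Kpnb1*. *Ran*, *Ranbp1*, *Xpo1* and *Kpna2* are nearer to 0 inside it.

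The 10 genes differed widely in level per length of exon. The mean over the 4 groups was 49.0 CPM per kb for *Ranbp1*, 44.5 for *Kpnb1*, 37.1 for *Ran* and 33.0 for *Ipo5*, and neighbours among these 4 overlapped over the kidneys. *Rangap1* and *Ipo4* followed with 24.2 CPM per kb each, *Xpo1* with 16.5, *Rcc1* with 8.90 and *Xpo5* with 7.01, again with neighbours that overlapped. *Kpna2*, with 0.940 CPM per kb, lay apart from *Xpo5*, and *Ipo5* lay apart from *Rangap1*: no kidney of the higher gene was below a kidney of the lower one. *Ipo4*, further down the order, still overlapped with *Ipo5* and *Ran*, since it reached 31.0 CPM per kb in its highest kidney, against 27.5 in the lowest kidney of each of these. *Ranbp1* was above *Kpnb1* in the mean of 3 groups, but in *Myc* KO kidneys *Kpnb1*, with 40.6 ± 1.97 CPM per kb, was above *Ranbp1*, with 38.5 ± 1.94 (SD, n = 5 each).

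**Figure D4:**
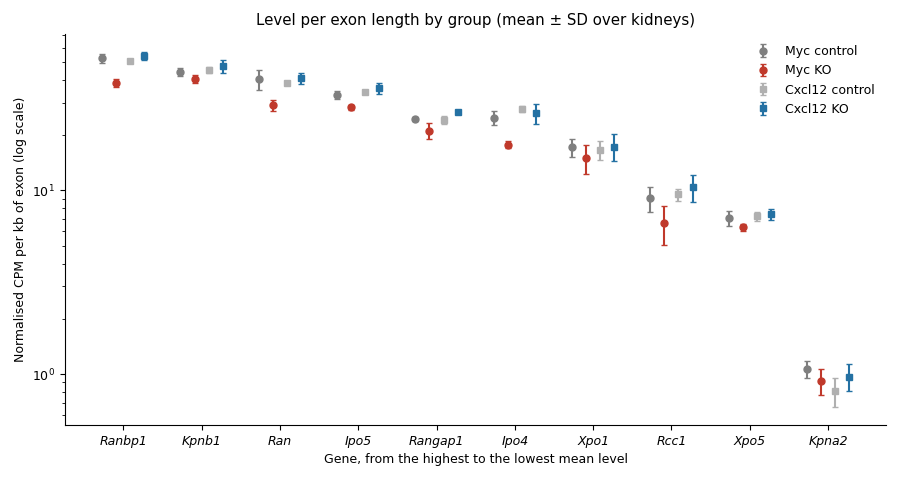
Level of each gene as normalised CPM per kb of exon (vertical axis, log scale) in the 4 groups, as mean ± SD over kidneys, ordered by the mean over groups. The levels run from 49.0 for *Ranbp1* to 0.940 for *Kpna2*.

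Within groups the 10 genes did not move as a block. After each group's mean was removed from the log2 CPM, the median correlation coefficient over the 45 pairs of genes was 0.17 across the 18 kidneys. Genes measured in the same kidney share its library and depth. The highest were 0.75 for *Xpo5* with *Ipo5* and 0.66 for *Kpnb1* with *Ipo5*. The lowest were -0.62 for *Rangap1* with *Xpo1* and -0.61 for *Ran* with *Xpo1*. With the KO difference left in and only the mean of each cohort removed, the median was 0.52, and *Ran* with *Ranbp1* had 0.83. Other genes were ranked on the same cohort-centred values, with the KO difference left in. Across the 18 kidneys the genes most like the mean of the 10, among 11062 other genes with a mean of at least 5 CPM, were *Myc* itself (coefficient 0.95), *Nsun2*, an RNA methyltransferase (0.95), *Mybbp1a*, a nucleolar protein (0.95), *Rcl1*, which takes part in ribosomal RNA processing (0.94), and *Rpp14*, a subunit of RNase P (0.93). With the group means removed these coefficients were 0.72, 0.83, 0.77, 0.74 and 0.78. *Myc* is the deleted gene, and the *Myc* KO effects were known when the 10 genes were chosen, so this ranking is a description.

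The other genes of the pathway were fitted with the same test and adjusted over all genes. Over 71 tested genes of nuclear transport, 2 were lower and 0 higher in *Myc* KO with edgeR's quasi-likelihood test, where 1.29% and 0.355% of all genes were called. In this set 49 had a negative log2 fold change, 69.0% against 50.1% of all genes, with a median of -0.09. An unadjusted p under 0.05 was found for 15 of the 71 and for 21.9% of all genes. *Rcc2*, a relative of Rcc1 known from the centromere, fell by 0.49 on the log2 scale (standard error 0.076, adjusted p = 0.013 from edgeR), from a range of 67.7 to 86.0 CPM in controls to 50.9 to 58.6 CPM in KO kidneys. *Nup210*, a membrane-spanning nucleoporin, fell by 0.72 (standard error 0.131, adjusted p = 0.025 from edgeR), from 32.2 to 53.8 CPM in controls to 24.1 to 28.4 CPM in KO kidneys. In both genes no *Myc* KO kidney reached a *Myc* control kidney. In *Cxcl12* KO the log2 fold change was 0.02 (standard error 0.118) for *Rcc2* and -0.30 (standard error 0.165) for *Nup210*, neither past the threshold. In *Myc* KO neither gene passed the threshold without *Myc* KO 2 or without *Myc* KO 3. *Nup210* also missed it without *Myc* KO 4 or 5 or *Myc* control 2 or 4. With DESeq2 *Xpot*, *Nup37*, *Nup43* and *Eny2* passed too, 6 of 71 in all, where DESeq2 called 7.63% of all genes.

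Other importins and transportins numbered 13 tested genes, of which 0 passed with edgeR, 0 with DESeq2 and 0 at an unadjusted p under 0.05, and 10 had a negative log2 fold change with a median of -0.04. The largest was *Kpna3*, an importin α, at -0.17 (adjusted p = 0.35 from edgeR). Of 6 other exportins 0 passed with edgeR, 1 with DESeq2 and 2 at an unadjusted p under 0.05. The largest was *Xpot*, the exportin of transfer RNA, at -0.42 (standard error 0.099, adjusted p = 0.053 from edgeR), with all KO kidneys below all controls. Of 28 nucleoporins 1 passed with edgeR, 3 with DESeq2 and 9 at an unadjusted p under 0.05, where 21.9% of all genes had one. A negative value was found for 15 of the 28. Of 5 other Ran regulators 1 passed with edgeR, 1 with DESeq2 and 1 at an unadjusted p under 0.05. Of 19 factors of mRNA export 0 passed with edgeR, 1 with DESeq2 and 3 at an unadjusted p under 0.05, and the largest was *Thoc3*, a subunit of the THO complex, at -0.21 (adjusted p = 0.18 from edgeR). *Kpna7* and *Rangrf* were under 0.5 CPM in every kidney and were not tested.

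Of 6 tested genes of cell division, 0 passed with edgeR, 0 with DESeq2 and 0 at an unadjusted p under 0.05. The summed level of the 8 listed genes had a median of 12.9 CPM in *Myc* control and 10.9 CPM in *Myc* KO kidneys. The largest change was that of *Cdk1*, the mitotic kinase, at -0.73 (standard error 0.387, adjusted p = 0.29 from edgeR). All 6 tested genes had a negative log2 fold change in *Cxcl12* KO. There 0 passed with edgeR, 0 with DESeq2 and 0 at an unadjusted p under 0.05. The sum of the 8 was 7.90 to 42.6 CPM in the 3 controls against 10.3 to 14.4 CPM in KO kidneys. Its median in KO kidneys, 13.2 CPM, was slightly above the median of the controls. Only the highest control lay above every KO kidney in this sum, and fold changes without that control are not given here. In *Cxcl12* KO kidneys 0 of the 71 genes of nuclear transport passed with edgeR and 0 with DESeq2, with a median log2 fold change of 0.05. Here 22 of the 71 had a negative value, 31.0% against 49.8% of all genes, and 49 a positive one. An unadjusted p under 0.05 was found with edgeR for 4 of the 71 and for 13% of all genes.

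**Figure D5:**
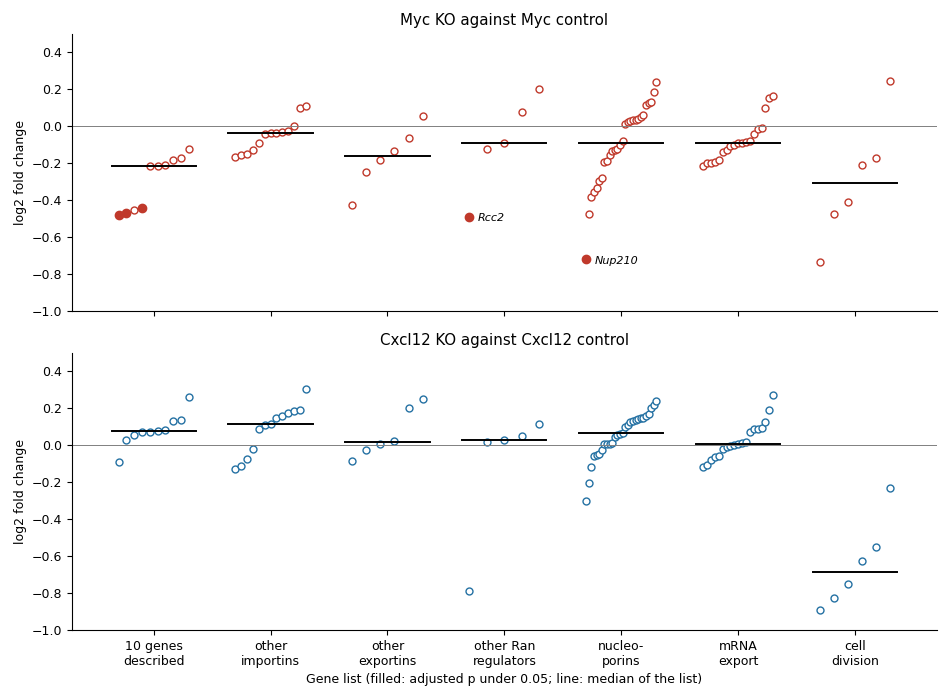
Log2 fold change (vertical axis) of each tested gene in *Myc* KO (top) and *Cxcl12* KO (bottom) kidneys, for the 10 genes described and 6 lists of related genes, with filled points for an adjusted p under 0.05 and a line at the median of each list. Outside the 10 genes, *Rcc2* and *Nup210* are filled, both in *Myc* KO, and no point is filled in *Cxcl12* KO.

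Fewer cells of a type and less RNA per cell cannot be told apart in whole-kidney RNA. Over 31 tested markers of kidney and blood cell types, 0 passed with edgeR in *Myc* KO, 7 had an unadjusted p under 0.05 (21.9% of all genes had one), and DESeq2 called *Nphs1*, *Kdr* and *Cdh5* higher and *Col1a1* lower. The 4 endothelial markers summed to 394 to 671 CPM in *Myc* control and 551 to 770 CPM in *Myc* KO kidneys, and the 4 podocyte markers to 419 to 732 and 709 to 805 CPM. All 8 of these had a positive log2 fold change. The 7 tubule markers summed to 6779 to 8771 CPM in control and 7371 to 8636 CPM in KO kidneys, and the 4 tubular injury markers to 2583 to 3383 and 2855 to 3342 CPM. Within this sum *Havcr1*, the injury marker KIM-1, had 506 CPM in the mean of controls and 203 CPM in KO kidneys, with overlapping groups (log2 fold change -1.32, adjusted p = 0.12 from edgeR), while *Lcn2* had 1151 and 1502 CPM (0.39, adjusted p = 0.27). These were the extremes of the list: 3 injury markers had a negative and 1 a positive log2 fold change, with a median of -0.025. The 5 neutrophil markers summed to 36.5 to 166 and 104 to 194 CPM, with *Mpo* under 0.5 CPM in every kidney, the 5 macrophage markers to 81.8 to 105 and 71.3 to 112 CPM, and the 4 fibroblast markers to 279 to 423 and 311 to 461 CPM. The 4 lymphocyte markers summed to less than 1 CPM in every kidney of this cohort. The part of these cell types in the values of the 10 genes was not tested.

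In *Cxcl12* KO kidneys 0 of the 31 markers passed with edgeR and 9 had an unadjusted p under 0.05 (13% of all genes had one). DESeq2 called *Lcn2* higher. The 4 injury markers summed to 1611 to 2438 CPM in controls and 2587 to 3143 CPM in KO kidneys, and the neutrophil markers to 14.8 to 20.5 and 23.2 to 98.1 CPM, with no overlap between the groups in either sum. Among single genes, 4.96% of all tested had all KO kidneys above all controls. The tubule markers summed to 7175 to 8357 CPM in controls and 5893 to 8143 CPM in KO kidneys. Their part in the higher *Rangap1* of these kidneys was not tested.

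Counts were taken without regard to strand. *Ranbp1* shares 54 exon bases with *Trmt2a*, *Rangap1* 65 with *Zc3h7b* and *Kpnb1* 466 with *Gm11583*, each on the other strand, and *Rcc1* shares 135 with *Snhg3* on its own strand, so reads in these stretches cannot be assigned. *Ran* has a processed copy, *Gm13461*, at 97.3% identity, which holds 773 reads over all kidneys, 2.30% of those of *Ran*. *Ipo4* shares 2583 exon bases with *Gm49378* and *Ranbp1* 281 with *Gm49776*. Both are genes of the GENCODE annotation that are not among the 45706 genes counted, so no reads were counted for them.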

How the data were processed

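Whole-kidney RNA was sequenced in 18 samples of 4 groups. The authors trimmed reads with Trimmomatic 0.32 and aligned them to GRCm38 with STAR 2.4.0, per the labels, and deposited raw counts per gene, not normalized. The unstranded count column was used as deposited. Summary lines without a gene, 29.4% to 32.6% of the reads, stayed out of library sizes. Gene names and exon lengths came from GENCODE vM21 (45143 of 45706 identifiers matched), and promoter windows from RefSeq on GRCm38.p6.

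In R 4.3.3, genes of low count were removed per cohort (filterByExpr), library sizes were scaled with TMM, and the quasi-likelihood test of edgeR 4.0.16 was run, with Benjamini-Hochberg adjustment over all genes tested. The difference of KO effects was fitted over all 18 kidneys. A standard error is the log2 fold change divided by the square root of F. CPM were scaled over all 18 kidneys, and correlations used log2 CPM with a prior count of 2. Levels between genes were compared per kb of exon. Copies were searched at 90% identity over 200 bases. Intervals of counting error are not given, and each SD is the spread between kidneys, which was not compared with the counting error. The labels give each kidney a replicate number and no more, so p-values measure the spread between these samples, which may in part be technical.

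The genes described, the related lists and the mapping group (under 5% of reads unmapped) were chosen with earlier results of these data known. Named besides the 10 genes are the targeted genes, related genes with an adjusted p under 0.05, the largest log2 fold change of each list (mean of at least 1 CPM) and the 5 genes most like the mean of the 10. Other genes are named as copies, overlaps, markers or calls of DESeq2 after their values were seen. Alternatives were RLE scaling, no filter, DESeq2 1.42.0, limma voom 3.58.1, the mapping group as covariate or split, a replicate block, 1 fit over all kidneys and leaving out each kidney. The scripts were tested on simulated data. Python 3.11.15, pandas 2.3.3 and matplotlib 3.10.9 made tables and figures. *Nup62* and protein sequences were not analysed here.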

Additional observations from a re-analysis of the deposited data

Results flagged for a closer look

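In *Myc* KO kidneys *Ran* had 1 kidney far from the other 4: KO 1, with 86.4 CPM, against 76.2 CPM in the next highest. The same kidney stood apart for *Rangap1*, with 121 CPM against 102 CPM in the next highest. For *Kpnb1* the kidney far from the others was *Myc* KO 4, with 245 CPM, below the other 4 at 270.0 CPM or more. These are 3 of the 30 groups of 5 kidneys examined for the 10 genes, and chance alone marks about 1 in 20. KO 1 had the fewest reads on genes of all 18 kidneys, 12918220.

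The KO effect on *Ranbp1* differed between the cohorts by -0.53 on the log2 scale (*Myc* minus *Cxcl12*, standard error 0.090), past an adjusted p of 0.05 in edgeR's quasi-likelihood fit over 15903 genes. It was lower in 5 of 5 *Myc* KO kidneys than in any *Myc* control kidney. The difference passed the threshold in 11 of 25 alternatives. As the *Myc* effect was known when the gene was chosen, this is no independent test.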

How the results depend on the processing

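All 190 log2 fold changes of the 10 genes under the alternatives of the *Myc* cohort kept their sign, as did 151 of 160 in the *Cxcl12* cohort. RLE scaling, no filter and limma voom left the counts of the 10 genes and of related genes called in *Myc* KO as they were. Counts of calls moved more, and where no cause is named the cause was not tested. Genes called in *Myc* KO numbered 246. They were 1139 with DESeq2, 934 with the high mapping group as a covariate, 683 in 1 fit over all 18 kidneys, 8 outside and 0 inside the high mapping group, where fewer kidneys remain (1339 at an unadjusted p under 0.05 inside, edgeR), and 21 (without *Myc* KO 2) to 877 (without *Myc* control 3) when 1 kidney was left out. Of the 10 genes 3 were called, but 5 with DESeq2 (also *Rangap1* and *Ipo5*), 0 outside and 0 inside the high mapping group, and 0 to 3 with 1 kidney left out: 0 without KO 2, and 1, *Ranbp1*, without KO 3. Over 19 alternatives *Ranbp1* was called in 15, *Ipo4* in 14 and *Ran* in 9. Of related genes 2 were called, but 6 with DESeq2, 5 with the covariate, 5 in the fit over all kidneys, 0 outside, 0 inside, and 0 to 5 with 1 kidney left out (5 without control 3). The median log2 fold change of the 10 genes, -0.21, was -0.31 inside the high mapping group and -0.28 (without KO 1) to -0.205 (without KO 2) with 1 kidney left out.

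In *Cxcl12* KO 0 genes were called with edgeR (1976 at an unadjusted p under 0.05), but 214 without a filter, 355 with DESeq2, 121 with the covariate, 80 outside the high mapping group, 25 in the fit over all kidneys, and 0 to 15 (without KO 1) with 1 kidney left out. For the difference of effects 11 genes were called, but 314 with DESeq2, 3 with limma voom, 133 with the covariate, 44 outside the high mapping group, and 1 to 75 (without *Myc* KO 5) with 1 kidney left out.

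Whether the replicate numbers pair the kidneys is not known, and so few pairs cannot settle it. In the *Myc* cohort, deviations from group means correlated by 0.059 on average over 5 same-numbered pairs (-0.16 to 0.38). The 20 pairs of unlike number there averaged -0.013 (-0.54 to 0.46). In the *Cxcl12* cohort the average was 0.062 over 3 same-numbered pairs (-0.054 to 0.14) and -0.015 over 12 pairs of unlike number. With the replicate block 19 genes, 0 of the 10 and 0 related genes were called in *Myc* KO, and 1 gene for the difference. The log2 fold changes with the block were -0.44 for *Ranbp1*, -0.46 for *Ran* and -0.48 for *Ipo4*.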
